A study of Mus musculus with 18 samples.

Results

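The genes described here are 10 markers of the endothelial cells that line the liver sinusoids, read by symbol from a panel of 23930 genes in whole mouse liver. They are Lyve1, Pecam1, Dnase1l3, Stab1, Stab2, Clec4g, Kdr, Oit3, Fcgr2b and Gpr182. The set was picked because its members, Lyve1 and Dnase1l3 above all, went different ways with ethanol in these same libraries. Their ethanol responses are therefore given as a description, and the calls among them, printed with the share of all genes called, support nothing. All 10 were on the panel, and all 10 had at least 1 CPM (reads of a gene relative to all reads of its library) in at least 3 libraries, the minimum for entering the fit.

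Every mouse carried floxed Yap alleles (Yap fl/fl) and received an adeno-associated virus at 8 weeks of age, whose TBG promoter restricts expression to hepatocytes. Knockout mice received AAV-TBG-Cre at a dose of 0.5 in the labels' unit of genome copies per mouse. Overexpressing mice received AAV-TBG-YAP-P2A-EGFP at 2 in that unit, and control mice AAV-TBG-GFP, also at 2, so that Cre came with a lower virus dose than the control vector. From 2 weeks later mice of each genotype were kept on a Lieber-DeCarli liquid diet, with 5 days of acclimation and then 4 weeks with ethanol (ethanol-fed) or without it (pair-fed). Ethanol-fed mice were gavaged with ethanol at 5 g/kg (33% by volume) and pair-fed mice with maltose-dextrin, 9 hours before the liver was taken. Each of the 6 groups of genotype and diet holds 3 libraries. The title of the series names YAP, ATF6 and stress of the endoplasmic reticulum in alcohol-related liver damage. Endothelial cells were not the target of any of these vectors.

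Liver sinusoidal endothelial cells form a fenestrated lining without a continuous basement membrane, through which plasma reaches the hepatocytes. They are scavenger cells that take up hyaluronan, modified proteins, immune complexes and other waste from blood by way of stabilins, Fc receptors and C-type lectins. In chronic liver disease they are known to lose fenestrae and scavenger receptors and to gain features of ordinary capillary endothelium, a change called capillarization.

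The libraries held 4.68 to 5.81 M reads, and 1 read was worth 0.172 to 0.214 CPM. The hepatocyte marker Alb stood at 23604 to 54184 CPM in all 18. Yap1 matched the genotype labels except in pair-fed overexpression replicate 1 (57.6 CPM, against 51.5 to 60.7 CPM in pair-fed controls), so the changes in overexpressing mice that rest on this library are also given without it. Sex is not among the labels, but Xist and Y-linked genes split the libraries. Xist marked 5 libraries, namely pair-fed control replicates 2 and 3 and all 3 pair-fed knockouts, and the Y-linked gene Ddx3y marked the other 13. The overexpression groups and all ethanol-fed groups thus hold Ddx3y libraries alone, whereas in knockout mice diet and sex chromosome genes cannot be told apart. The labels do not say that the 3 libraries of a group came from separate mice, so p-values measure the spread between libraries. With bulk RNA, fewer endothelial cells and less RNA per cell cannot be told apart.

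Lyve1 encodes a hyaluronan receptor of sinusoidal and lymphatic endothelium, and it ranged from 7.14 to 129.4 CPM over the 18 libraries. In knockout mice it had 50.2, 63.8 and 29.7 CPM in the ethanol-fed libraries, against 9.89, 23.9 and 7.14 CPM in the pair-fed ones. In overexpressing mice it had 70.6, 65.8 and 62.0 CPM with ethanol, against 30.5, 96.9 and 28.2 CPM pair-fed. In controls it had 72.3, 129.4 and 124.9 CPM with ethanol, against 18, 9.49 and 36.1 CPM pair-fed. The ethanol-fed libraries lay above the pair-fed ones without overlap in knockout and control mice. In overexpressing mice they overlapped because of pair-fed replicate 2, whose 96.9 CPM exceeded all 3 ethanol-fed libraries. On the log2(CPM + 1) scale the ethanol change was 1.84 ± 0.48 in knockout, 0.58 ± 0.48 in overexpressing and 2.45 ± 0.48 in control mice (SE of the fit, n = 3 against 3). In overexpressing mice the value was 1.14 without pair-fed replicate 2 and 0.33 without replicate 1, the library with Yap1 at the control level. The mean was highest in ethanol-fed controls (108.9 ± 31.7 CPM, SD, n = 3), whose libraries did not overlap those of the next group, the ethanol-fed overexpressing mice (66.1 ± 4.31 CPM). Below it each group overlapped its neighbour, down to pair-fed knockout mice (13.7 ± 9.00 CPM).

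Lymphatic vessels of the liver also make Lyve1. Of their other markers, Pdpn and Mmrn1 averaged 0.614 and 0.235 CPM over all libraries, close to the worth of a few reads. The remaining measured ones, Prox1, Flt4 and Reln, are also made by other liver cells. The summed level of the 5 measured lymphatic genes was 183 to 359 CPM in ethanol-fed and 259 to 311 CPM in pair-fed knockout mice. It was 221 to 311 CPM in ethanol-fed and 233 to 279 CPM in pair-fed overexpressing mice, and 242 to 320 CPM in ethanol-fed and 281 to 304 CPM in pair-fed controls. Since most of this sum comes from genes that other liver cells make, it does not follow lymphatic vessels, and their part in the Lyve1 values was not tested.

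Pecam1 encodes CD31, an adhesion molecule of the junctions between endothelial cells in all vessels. In knockout mice it had 56.6, 47.1 and 33.2 CPM with ethanol, against 34.4, 38.2 and 38 CPM pair-fed. With YAP overexpression it had 48.4, 42.5 and 48.2 CPM with ethanol, against 40.7, 55.6 and 35.9 CPM pair-fed. In controls it had 57.0, 57.7 and 50.0 CPM with ethanol, against 28.5, 29.2 and 37.5 CPM pair-fed. The groups overlapped in knockout and overexpressing mice and did not in controls. The log2 change was 0.27 ± 0.20 in knockout, 0.09 ± 0.20 in overexpressing (0.05 without pair-fed replicate 1) and 0.78 ± 0.20 in control mice.

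Dnase1l3 encodes a secreted nuclease that digests DNA in chromatin outside cells, and its level went the other way. In knockout mice it had 76.9, 59.2 and 64.4 CPM with ethanol, against 100.1, 90.4 and 89.0 CPM pair-fed. Overexpressing mice had 67.3, 49.2 and 74.2 CPM with ethanol, against 107.5, 90.8 and 87.3 CPM pair-fed. In controls it had 45.3, 49.4 and 49.1 CPM with ethanol, against 83.1, 101.6 and 82.4 CPM pair-fed. All 9 ethanol-fed libraries (45.3 to 76.9 CPM) lay below all 9 pair-fed libraries (82.4 to 107.5 CPM), pair-fed libraries with Xist and with Ddx3y included. Of the 11720 genes tested, 1.18% were placed in this way, and Dnase1l3 was chosen for its ethanol response. It was the lone member whose libraries did not overlap between the diets over all genotypes. Its log2 change was -0.48 ± 0.17 in knockout, -0.59 ± 0.17 in overexpressing (-0.50 without pair-fed replicate 1) and -0.87 ± 0.17 in control mice. The smallest spread was that of ethanol-fed controls (47.9 ± 2.33 CPM).

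**Figure D1:**
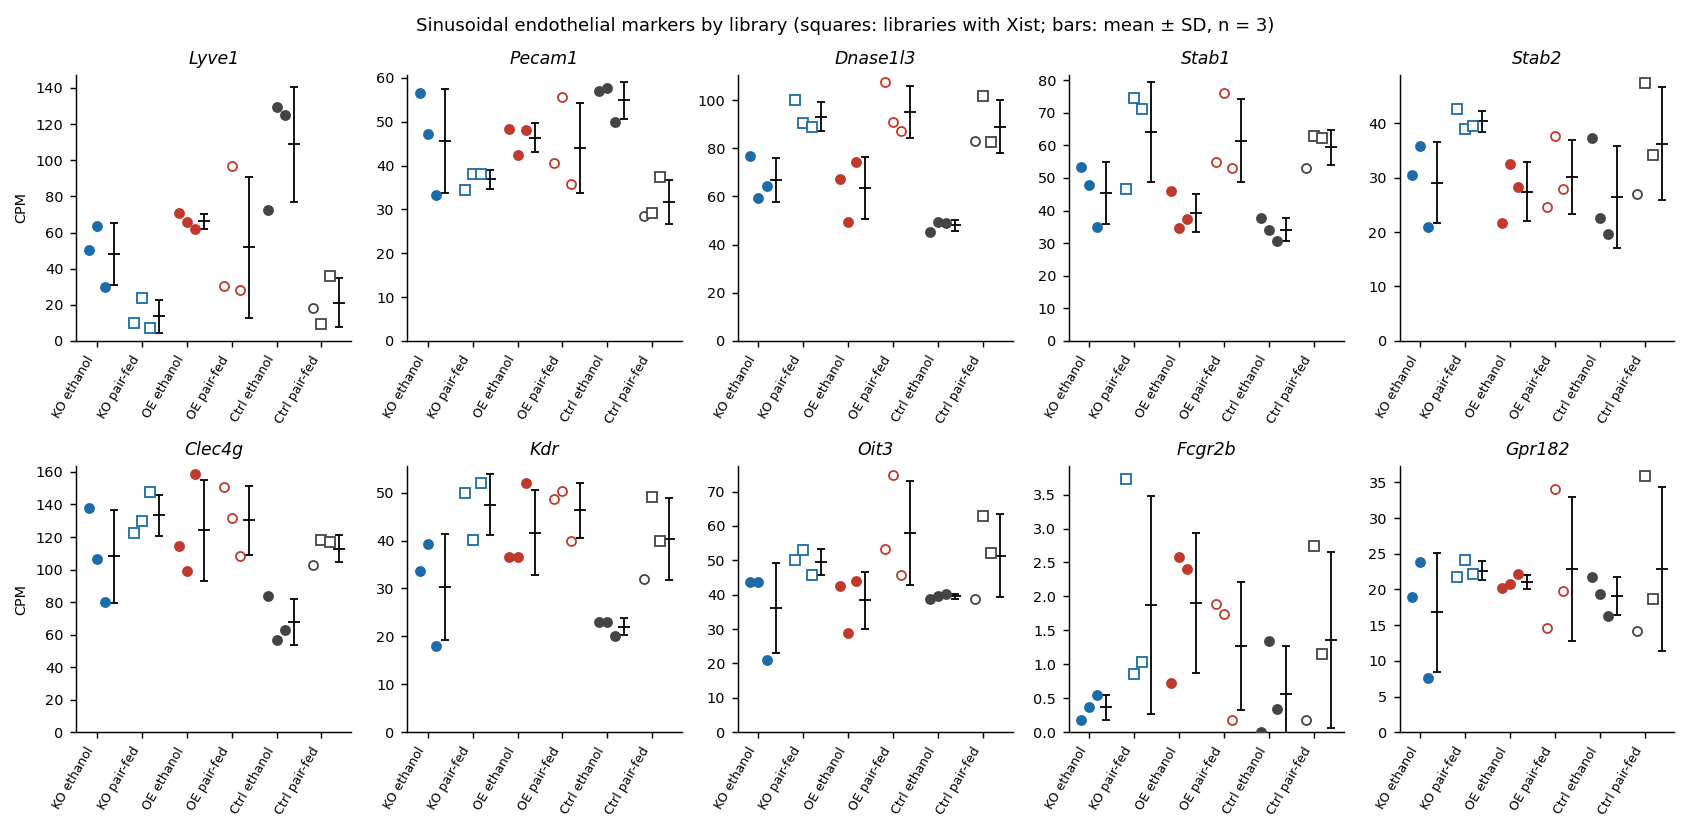
Level of each of the 10 genes (CPM, vertical axis from 0) in every library of the 6 groups, with the mean and SD of each group beside its points (SD bars that would pass below 0 end at the axis); KO is Yap knockout, OE is YAP overexpression and Ctrl is control, filled symbols are ethanol-fed, open symbols are pair-fed, and squares are libraries with Xist. Dnase1l3 lies between 45.3 and 76.9 CPM in every ethanol-fed library and between 82.4 and 107.5 CPM in every pair-fed one, and Lyve1 reaches 129.4 CPM in ethanol-fed controls.

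Since both genes were read in the same libraries, their ratio does not depend on library size. Lyve1 over Dnase1l3 was 0.462 to 1.08 in ethanol-fed and 0.0802 to 0.265 in pair-fed knockout mice. It was 0.835 to 1.34 in ethanol-fed and 0.283 to 1.07 in pair-fed overexpressing mice, where pair-fed replicate 2 again gave the overlap. In controls it was 1.60 to 2.62 with ethanol and 0.0934 to 0.439 pair-fed. The ratio compares 2 amplicons of unknown relative efficiency, so its changes between libraries can be read but its distance from 1 cannot. Over the 18 libraries the log2 levels of the pair correlated at r = -0.71, and at r = -0.23 once group means were removed, so most of the opposition lay between groups and little within them.

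**Figure D2:**
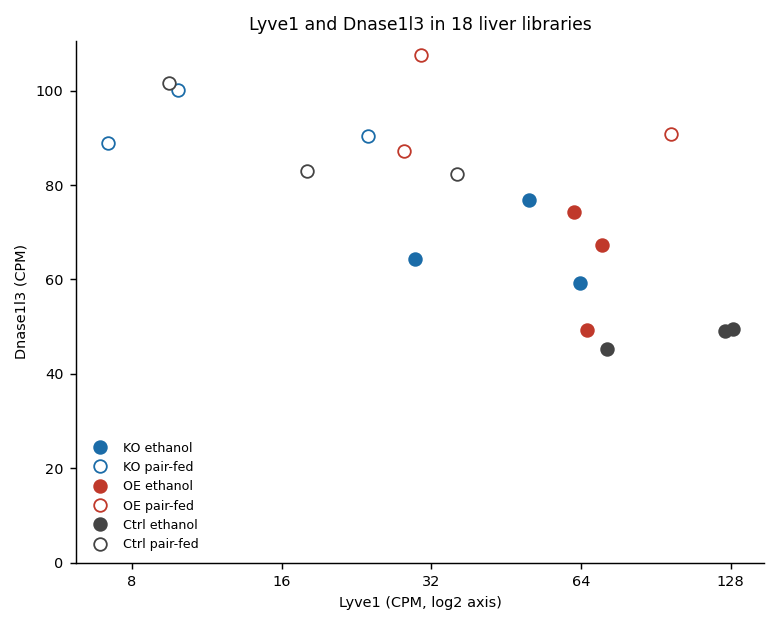
Dnase1l3 (CPM, vertical axis from 0) against Lyve1 (CPM, horizontal log2 axis) in the 18 libraries; each point is 1 library, filled for ethanol-fed and open for pair-fed mice, with colours for knockout (KO), overexpression (OE) and control (Ctrl). Ethanol-fed libraries lie below pair-fed ones and mostly to their right. The pair-fed overexpression library with 96.9 CPM of Lyve1 and 90.8 CPM of Dnase1l3 lies on the right. Ethanol-fed knockout replicate 3 (29.7 CPM of Lyve1) lies left of pair-fed control replicate 3 (36.1 CPM) and pair-fed overexpression replicate 1 (30.5 CPM).

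The scavenger receptors and lectin among the members are Stab1 and Stab2 (stabilins, of which Stab2 is the main clearance receptor for hyaluronan) and Clec4g (LSECtin, a C-type lectin). Kdr encodes the main signalling receptor for VEGF, on which the fenestrated state depends. Their promoters are shown because these 4 genes ran together across the libraries, with pairwise r of 0.49 to 0.87, and because they lay among the 5 members held by the RefSeq promoter table (GRCm38.p6). Lyve1, Pecam1, Dnase1l3, Oit3 and Gpr182 were not among those 5, and Fcgr2b was. Each sequence is the 250 bases before the gene start on the gene's own strand, 5′ to 3′, and all 4 genes lie on the minus strand. Capitals mark AGGAAG or its reverse complement CTTCCT, the core bound by ETS factors, a family that includes the endothelial regulator ERG. Stab1 is at chr14:31168642-31168891, Stab2 at chr10:87007943-87008192, Clec4g at chr8:3720652-3720901 and Kdr at chr5:75978456-75978705.
Stab1: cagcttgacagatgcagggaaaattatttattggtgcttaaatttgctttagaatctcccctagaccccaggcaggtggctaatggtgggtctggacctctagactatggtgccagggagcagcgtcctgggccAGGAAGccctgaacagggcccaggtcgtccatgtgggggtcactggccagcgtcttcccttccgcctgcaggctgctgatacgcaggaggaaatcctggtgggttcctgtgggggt
Stab2: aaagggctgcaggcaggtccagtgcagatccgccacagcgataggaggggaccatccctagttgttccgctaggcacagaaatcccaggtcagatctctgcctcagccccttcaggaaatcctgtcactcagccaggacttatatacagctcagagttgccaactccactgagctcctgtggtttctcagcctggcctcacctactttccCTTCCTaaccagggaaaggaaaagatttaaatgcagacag
Clec4g: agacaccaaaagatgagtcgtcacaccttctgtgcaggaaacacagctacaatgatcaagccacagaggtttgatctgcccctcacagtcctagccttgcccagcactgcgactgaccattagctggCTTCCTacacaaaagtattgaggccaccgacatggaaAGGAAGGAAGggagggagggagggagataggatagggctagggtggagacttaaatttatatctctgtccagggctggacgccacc
Kdr: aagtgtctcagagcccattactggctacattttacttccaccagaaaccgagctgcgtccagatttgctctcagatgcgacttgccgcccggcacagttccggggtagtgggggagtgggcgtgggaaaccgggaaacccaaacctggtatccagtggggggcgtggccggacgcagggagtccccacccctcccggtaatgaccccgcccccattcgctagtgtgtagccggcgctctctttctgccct
The ETS core stood once in the Stab1 window and once in that of Stab2, there beginning at -40 from the gene start. Clec4g held 3 matches, at -123, -86 and -82, the last pair running into each other. The Kdr and Fcgr2b windows held 0 matches. Among 32851 promoter windows of the same length, 29.5% held at least 1. The core of GATA factors, AGATAA, stood in 9.99% of all windows. That of TEAD factors, the DNA-binding partners of YAP, is GGAATG and stood in 12.6%. Both were searched on either strand and were in 0 of the 5 windows of members. These matches describe letters and not binding.

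Stab1 had a lower mean with ethanol in all 3 genotypes, with overlapping groups in knockout mice. It had 53.3, 47.9 and 35.0 CPM in ethanol-fed knockout mice, against 46.5, 74.4 and 71.2 CPM in pair-fed ones. Overexpressing mice had 45.9, 34.8 and 37.4 CPM with ethanol, against 54.9, 76.2 and 53.2 CPM pair-fed. In controls it had 37.8, 34.0 and 30.7 CPM with ethanol, against 53.2, 62.8 and 62.2 CPM pair-fed. The groups did not overlap in overexpressing and control mice and overlapped in knockout mice, where pair-fed replicate 1 was low. The log2 change was -0.48 ± 0.21 in knockout, -0.62 ± 0.21 in overexpressing (-0.69 without pair-fed replicate 1) and -0.78 ± 0.21 in control mice. The difference from the response of controls was 0.30 ± 0.30 in knockout and 0.16 ± 0.30 in overexpressing mice, given as a description. With a term for the Xist split the ethanol changes were -0.25 in knockout and -0.63 in control mice.

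Clec4g and Kdr were both lower with ethanol in controls, and both had overlapping groups in overexpressing mice. Clec4g had 137.7, 106.5 and 80.3 CPM in ethanol-fed knockout mice, against 122.7, 129.7 and 147.5 CPM in pair-fed ones. In overexpressing mice it had 114.3, 99.3 and 158.5 CPM with ethanol, against 150.9, 131.5 and 108.5 CPM pair-fed. In controls it had 83.9, 56.4 and 63.0 CPM with ethanol, against 103.1, 118.1 and 117.2 CPM pair-fed. Its groups overlapped in knockout (-0.33 ± 0.21) and overexpressing mice (-0.09 ± 0.21, and 0.03 without pair-fed replicate 1) and did not in controls (-0.74 ± 0.21). In knockout mice Kdr had 33.7, 39.2 and 17.9 CPM with ethanol, against 50.0, 40.2 and 52.1 CPM pair-fed. Overexpressing mice had 36.5, 36.5 and 52.0 CPM with ethanol, against 48.7, 50.4 and 39.8 CPM pair-fed. In controls it had 23, 23 and 20.0 CPM with ethanol, against 32, 49.1 and 39.8 CPM pair-fed. Kdr groups did not overlap in knockout (-0.69 ± 0.24) and control mice (-0.83 ± 0.24), whereas they overlapped in overexpressing mice (-0.16 ± 0.24, and -0.12 without pair-fed replicate 1).

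Stab2, Oit3 and Gpr182 had overlapping groups in controls. Oit3 encodes a zona pellucida domain protein made in liver, and Gpr182 an atypical chemokine receptor of endothelium. Stab2 ranged from 19.6 to 47.4 CPM over the 18 libraries, with ethanol changes of -0.49 ± 0.26 in knockout, -0.12 ± 0.26 in overexpressing and -0.45 ± 0.26 in control mice. Only in knockout mice did its ethanol-fed libraries (21.0 to 35.8 CPM) stay below the pair-fed ones (38.9 to 42.6 CPM). Oit3 ranged from 21.0 to 74.8 CPM, and its changes of -0.52 ± 0.26 in knockout, -0.57 ± 0.26 in overexpressing and -0.34 ± 0.26 in control mice came without overlap in knockout and overexpressing mice. Gpr182 ranged from 7.62 to 35.9 CPM, with changes of -0.54 ± 0.36, -0.03 ± 0.36 and -0.15 ± 0.36 in knockout, overexpressing and control mice, and its groups overlapped in each genotype. Without pair-fed replicate 1 the changes in overexpressing mice were -0.25 for Stab2, -0.62 for Oit3 and -0.29 for Gpr182.

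Fcgr2b, the inhibitory Fc receptor by which these cells clear small immune complexes, was close to the limit of the panel here. It had between 0 and 20 reads in a library, or 0 to 3.73 CPM. Ethanol-fed control replicate 1 had 0 reads, which allows up to 0.534 CPM (the worth of 3 reads, for counting error alone). In knockout mice it had 1, 2 and 3 reads with ethanol and 20, 4 and 6 pair-fed. Its changes (-0.95 ± 0.48 in knockout, 0.39 ± 0.48 in overexpressing, or 0.62 without pair-fed replicate 1, and -0.52 ± 0.48 in control mice) rest on these few reads and are understated by the pseudocount of 1.

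Over the 10 members the median ethanol change was -0.48 in knockout, -0.10 in overexpressing and -0.49 in control mice, against -0.05, -0.07 and -0.09 over all genes tested. In controls 8 of 10 were negative, with the same number in knockout and 7 in overexpressing mice. Of all genes tested, 41.3% were positive in control, 45.6% in knockout and 42.4% in overexpressing mice, so most genes were negative in each genotype. With limma and an adjusted p under 0.05 (Benjamini-Hochberg over 11720 genes), a threshold called here passing, 1 member passed in knockout mice (Lyve1, higher), where 9.90% of all genes did. In overexpressing mice 0 members passed, against 1.15% of all genes, with 3 at an unadjusted p under 0.05 (14.5% of all genes), or 2 without pair-fed replicate 1 (12.6%), and 0 by edgeR. In controls 3 passed (Lyve1 and Pecam1 higher, Dnase1l3 lower), against 2.70% of all genes. Groups without overlap numbered 6 members in knockout (28.5% of all genes), 3 in overexpressing (22.4%) and 6 in control mice (22.1%). Without pair-fed replicate 2 or ethanol-fed replicate 2, 0 members passed in controls. Without pair-fed replicate 3 or ethanol-fed replicate 1, 0 members passed in knockout mice. Because the set was chosen on these responses, the counts describe it and show nothing beyond that.

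**Figure D3:**
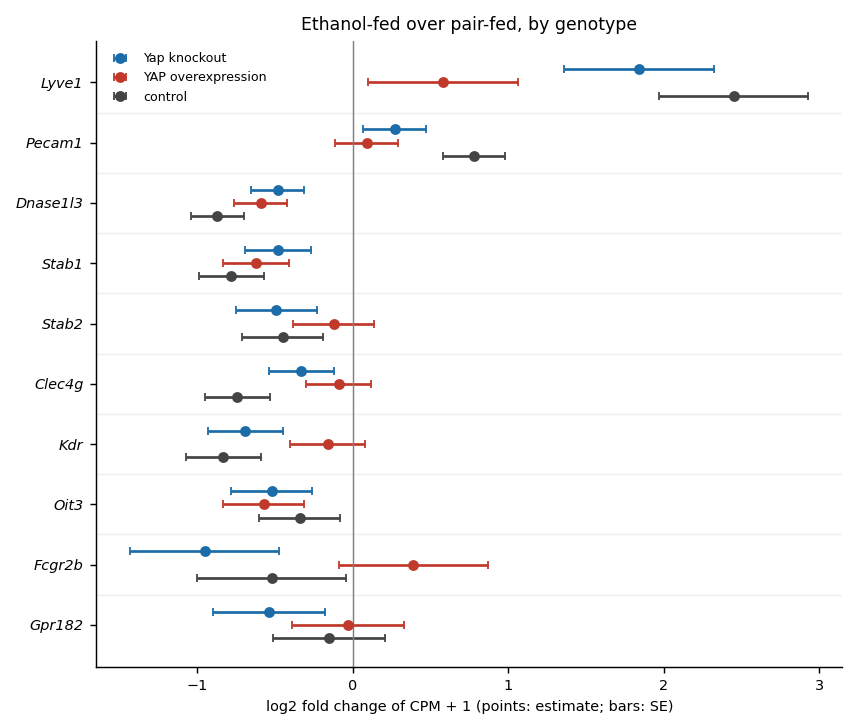
Ethanol-fed over pair-fed change of each gene on the log2(CPM + 1) scale (horizontal axis; points are the fitted change and bars its SE) in knockout, overexpressing and control mice. Lyve1 lies to the right of 0 in each genotype, with 2.45 in controls and 0.58 in overexpressing mice, and Dnase1l3 to the left, with -0.87 in controls and -0.48 in knockout mice.

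Pair-fed controls held a mix of sex chromosome genes. Pair-fed control replicate 1 was the lone Ddx3y library of its group, and it was the lowest of the group in 7 of the 9 members other than Fcgr2b. Whether its level goes with sex chromosome genes or with this library cannot be told apart. Against it alone, all 3 ethanol-fed controls were higher in Lyve1 (72.3 to 129.4 against 18 CPM) and Pecam1 (50.0 to 57.7 against 28.5 CPM). They were lower in Dnase1l3 (45.3 to 49.4 against 83.1 CPM), Stab1 (30.7 to 37.8 against 53.2 CPM), Clec4g (56.4 to 83.9 against 103.1 CPM) and Kdr (20.0 to 23 against 32 CPM). For Stab2 its 27.0 CPM lay inside the ethanol-fed range of 19.6 to 37.2 CPM, and for Gpr182 its 14.2 CPM lay below all 3 ethanol-fed libraries. Adding this split (Xist or Ddx3y) to the fit left 2.48 for Lyve1, 0.92 for Pecam1, -0.78 for Dnase1l3, -0.63 for Stab1, -0.62 for Clec4g and -0.53 for Kdr in controls. It took Stab2 to -0.08, and turned the sign of Oit3 (0.03), Fcgr2b (0.32) and Gpr182 (0.40). In knockout mice the same term gave 1.90 for Lyve1, 0.48 for Pecam1, -0.34 for Dnase1l3, -0.25 for Stab1, -0.14 for Clec4g and -0.24 for Kdr. There it turned the sign of Stab2 (0.08), Oit3 (0.03), Fcgr2b (0.32) and Gpr182 (0.28). Both sets of estimates rest on that 1 Ddx3y library among pair-fed controls. With this adjustment 0 members passed in knockout or control mice.

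Comparisons between genotypes on one diet were not themselves used to choose the genes and were tested with limma. They share the control libraries, whose ethanol response entered that choice, so their values are not independent of it. No member passed the test between pair-fed knockout and pair-fed control mice. Lyve1 averaged 13.7 ± 9.00 CPM in pair-fed knockout and 21.2 ± 13.6 CPM in pair-fed control mice (log2 -0.58 ± 0.48, adjusted p = 0.999). Dnase1l3 averaged 93.2 ± 6.03 CPM in pair-fed knockout and 89.1 ± 10.9 CPM in pair-fed control mice (0.07 ± 0.17, adjusted p = 0.999). With limma 0 of 10 members passed, against 0.00853% of all genes, with 0 at an unadjusted p under 0.05 (3.13% of all genes) and 0 by edgeR. Only Clec4g had groups without overlap, with 122.7, 129.7 and 147.5 CPM in pair-fed knockout mice against 103.1, 118.1 and 117.2 CPM in pair-fed controls (7.06% of all genes did). The median of the members was 0.14, against 0.02 over all genes, and the pair-fed groups differed in their sex chromosome genes.

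In ethanol-fed mice both groups held Ddx3y libraries alone, and Lyve1 and Dnase1l3 separated knockouts from controls in every library without passing the test. Lyve1 was lower in each ethanol-fed knockout library (29.7 to 63.8 CPM) than in each ethanol-fed control (72.3 to 129.4 CPM), a log2 difference of -1.19 ± 0.48 (limma adjusted p = 0.537, unadjusted 0.0228). Dnase1l3 was higher in each ethanol-fed knockout library (59.2 to 76.9 CPM) than in each ethanol-fed control (45.3 to 49.4 CPM), a difference of 0.46 ± 0.17 (adjusted p = 0.506, unadjusted 0.0136). Clec4g averaged 108.2 ± 28.7 CPM in ethanol-fed knockout and 67.8 ± 14.4 CPM in ethanol-fed control mice, with overlapping libraries (0.65 ± 0.21, adjusted p = 0.411, unadjusted 0.00629). None of these passed, so by limma 0 of 10 members were called, against 0.0171% of all genes, with the 3 named ones at an unadjusted p under 0.05 (8.34% of all genes) and 0 by edgeR. Groups without overlap were found for 2 members and for 13.4% of all genes. The member median was 0.02, against 0.06 over all genes. Of 13 Kupffer cell and macrophage markers, 13 had a negative value in the same comparison (median -0.67) and 0 passed by limma or edgeR, with 7 at an unadjusted p under 0.05. Their part in the values of the members was not tested.

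Ethanol-fed knockout replicate 3 stood low in these genes. It was the lowest of its group in 8 of 9 members, by a median of -0.65 on the log2 scale against the mean of the other libraries. Without it the difference from ethanol-fed controls was -0.89 for Lyve1, 0.49 for Dnase1l3, 0.85 for Clec4g and 0.70 for Kdr (adjusted p = 0.565, 0.371, 0.128 and 0.219). The same library had 67.1 CPM of the endothelial thrombin receptor Thbd, against 13.6 and 11.5 CPM in the other ethanol-fed knockouts.

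In pair-fed mice Lyve1 and Pecam1 had higher means with YAP overexpression, in overlapping groups that did not pass the test. All 3 overexpressing libraries carry Ddx3y, and 2 of the 3 control libraries carry Xist. Lyve1 averaged 51.9 ± 39.0 CPM in pair-fed overexpressing and 21.2 ± 13.6 CPM in pair-fed control mice (1.2 ± 0.48, limma adjusted p = 0.485, unadjusted 0.0215). Pecam1 averaged 44.1 ± 10.3 CPM in pair-fed overexpressing and 31.7 ± 4.99 CPM in pair-fed control mice (0.45 ± 0.20, adjusted p = 0.552, unadjusted 0.037). Both differences leaned on pair-fed overexpression replicate 2, which was the highest of its group in 7 of 9 members. Without it they were 0.64 and 0.27 (adjusted p = 0.841 and 0.851), and without replicate 1, whose Yap1 was at the control level, 1.46 and 0.49 (adjusted p = 0.503 and 0.676). By limma 0 of 10 members passed, against 0.145% of all genes, with 2 at an unadjusted p under 0.05 (8.46% of all genes) and 0 by edgeR. The groups overlapped in each of the 10, while 13.8% of all genes had groups without overlap. The other differences ran from -0.25 ± 0.26 for Stab2 to 0.21 ± 0.24 for Kdr, with 0.10 ± 0.17 for Dnase1l3, and without pair-fed overexpression replicate 1 from -0.23 for Fcgr2b to 0.28 for Gpr182. A term for the Xist split gave 1.24 for Lyve1, 0.59 for Pecam1, 0.84 for Fcgr2b, 0.57 for Gpr182, 0.53 for Oit3, 0.51 for Kdr and 0.13 to 0.32 for the other members (adjusted p = 1 for each).

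In ethanol-fed mice Clec4g and Kdr were higher with YAP overexpression than in controls in every library, all of them with Ddx3y, and neither passed. Clec4g had 114.3, 99.3 and 158.5 CPM in ethanol-fed overexpressing mice, against 83.9, 56.4 and 63.0 CPM in ethanol-fed controls (0.85 ± 0.21, limma adjusted p = 0.139, unadjusted 0.000737). Kdr had 36.5, 36.5 and 52.0 CPM in ethanol-fed overexpressing mice, against 23, 23 and 20.0 CPM in ethanol-fed controls (0.88 ± 0.24, adjusted p = 0.208, unadjusted 0.00195). The lowest overexpressing library exceeded the highest control library for both genes. Leaving out 1 library at a time gave 0.67 to 1.02 for Clec4g and 0.71 to 0.96 for Kdr. Dnase1l3 differed by 0.38 ± 0.17 (adjusted p = 0.514, unadjusted 0.0378), with overlapping libraries. The member median was 0.17, against 0.00 over all genes. Lyve1 (62.0 to 70.6 against 72.3 to 129.4 CPM, -0.67 ± 0.48, adjusted p = 0.79) and Pecam1 (42.5 to 48.4 against 50.0 to 57.7 CPM, -0.24 ± 0.20, adjusted p = 0.817) lay below the ethanol-fed controls without overlap. By limma 0 of 10 members passed, against 0.102% of all genes, with 3 at an unadjusted p under 0.05 (8.84% of all genes) and 0 by edgeR, and groups without overlap were found for 4 members and 15.0% of all genes.

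**Figure D4:**
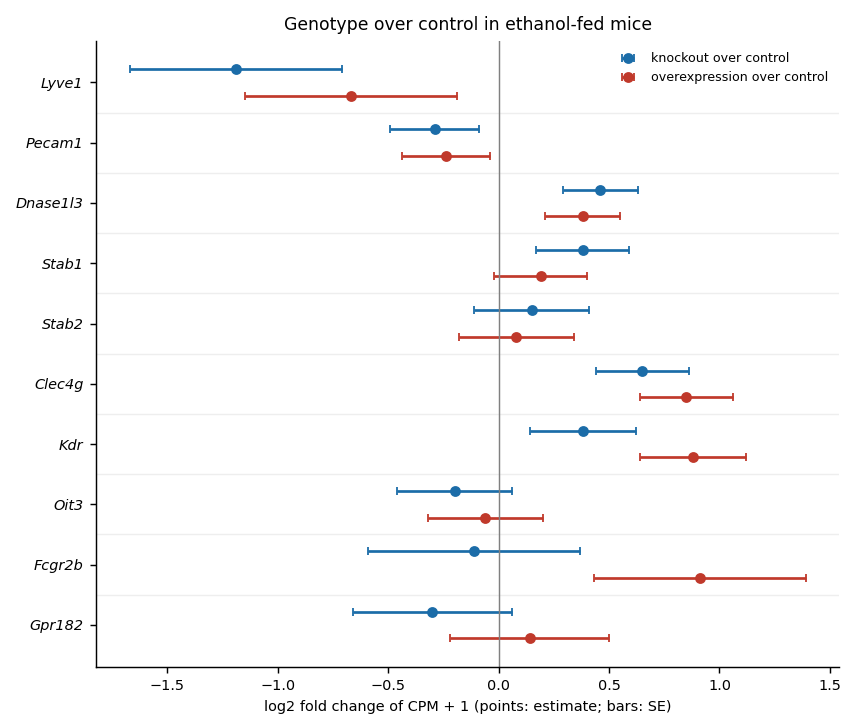
Difference of ethanol-fed knockout and of ethanol-fed overexpressing mice from ethanol-fed controls on the log2(CPM + 1) scale (horizontal axis; points are the fitted difference and bars its SE); both comparisons use the same 3 control libraries. Lyve1 and Pecam1 lie to the left of 0 and Dnase1l3, Clec4g and Kdr to the right in both, with 0.65 for Clec4g in knockout and 0.85 in overexpressing mice, and 0 of 10 genes pass the adjusted threshold in either.

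The knockout and overexpression comparisons share the ethanol-fed controls, so values that run the same way in both are not independent of each other. The difference between ethanol responses (an interaction) contains the response of the controls on which the genes were chosen, so its values are a description of the members. For ethanol by overexpression it was -1.87 ± 0.68 for Lyve1, -0.69 ± 0.28 for Pecam1 and 0.66 ± 0.30 for Clec4g. Without pair-fed overexpression replicate 1 these were -2.12, -0.73 and 0.77, and with a term for the Xist split -1.90, -0.83 and 0.53. For ethanol by knockout it was -0.61 ± 0.68 for Lyve1 and 0.39 ± 0.24 for Dnase1l3. By limma 0 of 10 members and 0% of all genes were called in either interaction, and 0 members by edgeR. At an unadjusted p under 0.05 there were 3 members for overexpression (7.23% of all genes) and 0 for knockout (5.68% of all genes), from which nothing is read.

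Correlations over the 18 libraries describe how the members ran together, with the caveat that libraries of a group share their treatment. Among the 9 members other than Fcgr2b, Lyve1 and Pecam1 formed a pair (r = 0.82), as did Clec4g and Kdr (r = 0.87), and the 7 others correlated above 0 in 21 of 21 pairs (median r = 0.62). Lyve1 or Pecam1 correlated above 0 with those 7 in 2 of 14 pairs (median r = -0.26). Once group means were removed this became 12 of 14 pairs (median r = 0.42), which rested mostly on Pecam1. Its values with those 7 then ran from 0.15 (Dnase1l3) to 0.79 (Stab1), so within a group libraries high in Pecam1 tended to be high in them. For Lyve1 they ran from -0.23 (Dnase1l3) to 0.44 (Stab1), with 0.03 for Stab2, -0.02 for Clec4g and 0.07 for Kdr. Lyve1 and Pecam1 differ from those 7 in the sign of their ethanol change in controls, on which the members were chosen. Correlations over all libraries therefore partly restate that difference, and the share of positive pairs over all genes was not computed. Among all 8457 genes with a mean of at least 5 CPM, those most like Lyve1 were Gskip (r = 0.92, Spearman's rho = 0.88), Tanc2 (0.89), Gas2l1 (0.87), Bik (0.87) and F2r (0.86), the last being a thrombin receptor. Those most like Dnase1l3 were Cct4 (0.90), Kcnk5 (0.89), Mrps28 (0.88), Pex6 (0.88) and Sucnr1 (0.88, the succinate receptor). For Stab2 they were Lyplal1, Smim20 and Eef2k (0.90 each), Atp6v0d1 (0.89) and H2-Q4 (0.88). None of these 15 genes is a member.

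Other genes of endothelium were tested as well. Their lists were chosen with earlier results of these data known, so the choice and the tests are not independent. Of 17 other sinusoidal genes tested, 7 were positive and 10 negative with ethanol in controls (median -0.10, against -0.09 over all genes). In knockout mice these were 6 and 11 (median -0.29, against -0.05), and in overexpressing mice 9 and 8 (0.16, against -0.07). Ehd3, which encodes an ATPase of endocytic recycling found in sinusoidal endothelium, was the clearest fall among the 17. It had 38.6, 47.9 and 25 CPM in ethanol-fed knockout mice, against 106.8, 92.7 and 74.9 CPM in pair-fed ones (-1.31 ± 0.21, limma adjusted p = 0.00111). In ethanol-fed controls it averaged 30.1 ± 3.54 CPM, against 89.2 ± 19.8 CPM in pair-fed controls (SD, n = 3 each; -1.52 ± 0.21, adjusted p = 0.000864). In overexpressing mice it had 54.5, 52.5 and 60.3 CPM with ethanol, against 68.5, 75.5 and 82.7 CPM pair-fed, a change of -0.43 ± 0.21 that did not pass (adjusted p = 0.371, and -0.50 without pair-fed replicate 1, adjusted p = 0.417). All 9 ethanol-fed libraries were below all 9 pair-fed ones. Adjusted for the Xist split, the change was -1.32 in controls (adjusted p = 0.0922) and -1.0 in knockout mice (adjusted p = 0.585). The interaction of ethanol with overexpression was 1.09 ± 0.30 (adjusted p = 0.281), or 1.02 without that overexpression library (adjusted p = 0.429) and 0.89 with the Xist split in the fit (adjusted p = 0.715).

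Thbd encodes thrombomodulin, the endothelial receptor that turns thrombin toward activation of protein C. It rose in knockout mice, with 13.6, 11.5 and 67.1 CPM in ethanol-fed against 3.17, 2.78 and 3.83 CPM in pair-fed libraries (2.45 ± 0.46, limma adjusted p = 0.00277). In overexpressing mice it had 4.15, 6.82 and 7.58 CPM with ethanol, against 9.28, 9.04 and 8.07 CPM pair-fed (-0.48 ± 0.46, adjusted p = 0.685, and -0.44 without pair-fed replicate 1, adjusted p = 0.785). It rose in controls, with 31.2, 42.7 and 20.3 CPM in ethanol-fed against 2.27, 2.92 and 5.16 CPM in pair-fed libraries (2.85 ± 0.46, adjusted p = 0.00295). The ethanol-fed libraries were all above the pair-fed ones in knockout and control mice and all below them in overexpressing mice. Ethanol-fed overexpressing mice differed from ethanol-fed controls by -2.15 ± 0.46 (adjusted p = 0.0743), and the interaction of ethanol with overexpression was -3.33 ± 0.65 (adjusted p = 0.0907), neither past the threshold. That interaction was -3.30 without pair-fed overexpression replicate 1 (adjusted p = 0.213) and -3.72 with the Xist split in the fit (adjusted p = 0.176). The rise in controls passed under all 16 alternatives tried, adjustment for the Xist split included (3.25, adjusted p = 0.0464). In knockout mice it did not pass with that term (3.03, adjusted p = 0.303).

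Nos3, the endothelial nitric oxide synthase, averaged 4.14 ± 2.23 CPM in ethanol-fed and 1.04 ± 0.401 CPM in pair-fed knockout mice (SD, n = 3 each), and rose there (1.27 ± 0.31, limma adjusted p = 0.014). It rose in controls too, with 4.31 ± 0.836 CPM in ethanol-fed and 1.17 ± 0.515 CPM in pair-fed libraries (1.31 ± 0.31, adjusted p = 0.0261). In overexpressing mice it averaged 2.38 ± 0.0333 CPM with ethanol and 1.70 ± 0.674 CPM pair-fed and did not pass (0.36 ± 0.31, adjusted p = 0.644, and 0.48 without pair-fed replicate 1, adjusted p = 0.624). The endothelin receptor Ednrb averaged 22 ± 7.36 CPM in ethanol-fed and 8.93 ± 3.54 CPM in pair-fed controls (1.23 ± 0.31, adjusted p = 0.0388). It averaged 13.4 ± 1.77 CPM in ethanol-fed and 10.3 ± 1.51 CPM in pair-fed knockout mice (0.35 ± 0.31, adjusted p = 0.499). In overexpressing mice it averaged 13.7 ± 5.34 CPM with ethanol and 8.03 ± 1.54 CPM pair-fed (0.66 ± 0.31, adjusted p = 0.34, and 0.78 without pair-fed replicate 1, adjusted p = 0.36). In controls Nos3 passed under 7 of 15 alternatives and Ednrb under 8 of 16, neither of them with the Xist split in the fit (adjusted p = 0.153 for Nos3 and 0.0547 for Ednrb). Nor did Nos3 pass with it in knockout mice (adjusted p = 0.429).

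**Figure D5:**
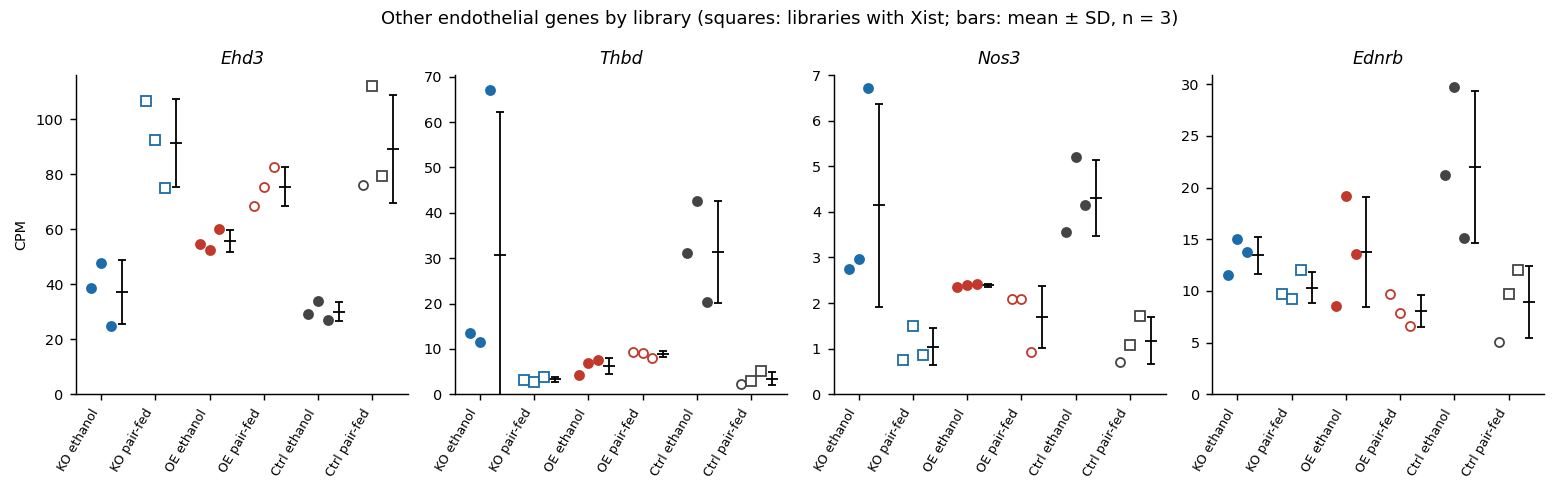
Level of Ehd3, Thbd, Nos3 and Ednrb (CPM, vertical axes from 0) in every library of the 6 groups, with the mean and SD of each group beside its points (an SD bar that would pass below 0 ends at the axis); filled symbols are ethanol-fed, open ones pair-fed, and squares are libraries with Xist. Ehd3 is lower in every ethanol-fed library, and Thbd reaches 20.3 to 42.7 CPM in ethanol-fed controls but 4.15 to 7.58 CPM in ethanol-fed overexpressing mice.

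Counted by list, the ethanol response of controls passed in 1 of 17 other sinusoidal genes (Ehd3), 1 of 21 genes of endothelium at large (Nos3) and 2 of 10 genes of larger vessels and capillarization (Thbd and Ednrb), where 2.70% of all genes did. Over all the lists other than the members it was 4 genes, or 3.54% of those tested. Of the 10 genes of larger vessels and capillarization, 7 were positive and 3 negative in controls, 6 and 4 in knockout and 5 and 5 in overexpressing mice. At an unadjusted limma p under 0.05 they held 2 higher and 0 lower in controls, and 1 higher and 2 lower in knockout mice. Genes of endothelium at large such as Cdh5 and Tie1 had a median change of 0.02 in controls, against -0.09 over all genes. Their summed level was 441 to 453 CPM in ethanol-fed and 479 to 529 CPM in pair-fed knockout mice, 397 to 453 CPM in ethanol-fed and 419 to 511 CPM in pair-fed overexpressing mice, and 448 to 478 CPM in ethanol-fed and 406 to 502 CPM in pair-fed controls. The sums overlapped in overexpressing and control mice and were lower with ethanol in knockout mice. In overexpressing mice 0 genes of all the other lists passed with limma, with 15 at an unadjusted p under 0.05 (13.3% of those tested, against 14.5% of all genes) and 0 by edgeR. Without pair-fed replicate 1 these were 0 and 16. In knockout mice 20 passed, or 17.7% of those tested, against 9.90% of all genes, and 0 of these 20 did once the Xist split was in the fit.

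Those of the endothelial lists in knockout mice were Ehd3, Thbd and Nos3, the mannose receptor Mrc1 (-1.13 ± 0.25, limma adjusted p = 0.00848), the lysosomal protease Ctsl (1.56 ± 0.27, adjusted p = 0.00162) and the Wnt ligand Wnt2 (0.99 ± 0.30, adjusted p = 0.0437), which passed under 6 of 16 alternatives. Ctsl is made by many cells, and averaged 3058 ± 1314 CPM in ethanol-fed and 978 ± 214 CPM in pair-fed knockout mice. Mrc1, Ctsl and Wnt2 ran the same way in controls without passing by limma. The changes there were -0.77 ± 0.25 (adjusted p = 0.105), 0.83 ± 0.27 (0.105) and 1.06 ± 0.30 (0.0692). In overexpressing mice they were -0.35 ± 0.25, 0.54 ± 0.27 and 0.52 ± 0.30 (limma adjusted p = 0.568, 0.37 and 0.46). By edgeR Wnt2 was called in controls and not in knockout mice. Pdpn (-1.16 ± 0.29, adjusted p = 0.017) passed in the lymphatic list, in which 0 of 4 passed in controls, at 0 to 0.371 CPM in ethanol-fed and 1.5 to 2.24 CPM in pair-fed knockout mice.

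The ligands, partners and relatives of the members were read in the same way. Vegfa, the ligand of Kdr made largely by hepatocytes, averaged 122.0 ± 15.0 CPM in ethanol-fed and 255.5 ± 52.9 CPM in pair-fed knockout mice (-1.05 ± 0.24, limma adjusted p = 0.0104, and -0.47 with the Xist split in the fit, where it did not pass). With YAP overexpression it averaged 115.6 ± 25 CPM with ethanol and 130.7 ± 29.4 CPM pair-fed (-0.17 ± 0.24, adjusted p = 0.801, and -0.30 without pair-fed replicate 1, adjusted p = 0.708). In controls it averaged 119.6 ± 36.3 CPM with ethanol and 215.5 ± 51.5 CPM pair-fed, a change of -0.86 ± 0.24 that did not pass (adjusted p = 0.0619). Of the 7 VEGF and angiopoietin ligands tested, Vegfa in knockout mice was the lone call. Among 5 hyaluronan genes the receptor Cd44 passed in knockout mice, with 8.62 ± 1.87 CPM in ethanol-fed and 20.6 ± 6.48 CPM in pair-fed libraries (-1.14 ± 0.29, adjusted p = 0.0175), and 0 passed in controls by limma (1 at an unadjusted p under 0.05 and 1 by edgeR, Tmem2). Of the 5 other deoxyribonuclease genes 0 passed in any genotype by limma (1 at an unadjusted p under 0.05 in overexpressing, 1 in control and 0 in knockout mice, and 0 by edgeR).

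Markers of other cells moved with ethanol in knockout mice. Of 13 Kupffer cell and macrophage markers tested, 13 had a negative change there (median -1.44, against -0.05 over all genes). By limma 10 of them passed, all lower, while 9.90% of all genes were called in either direction. Vsig4 was among these 10, with 24.7 ± 1.5 CPM in ethanol-fed and 82.9 ± 14.4 CPM in pair-fed libraries. With the Xist split in the fit 0 of these 10 passed, at changes of -0.33 to -1.46. The summed level of the 14 measured was 281 to 325 CPM in ethanol-fed and 664 to 838 CPM in pair-fed knockout mice, and C1qa was near 0 throughout (mean 0.0309 CPM). It was 559 to 592 CPM in ethanol-fed and 397 to 833 CPM in pair-fed overexpressing mice, and 398 to 803 CPM in ethanol-fed and 589 to 703 CPM in pair-fed controls, with 0 of 13 markers passing by limma and 0 by edgeR in either genotype (1 and 2 at an unadjusted p under 0.05). Mrc1, Fcgr2b and, in some of them, Lyve1 are also made by macrophages, and the part of these cells in their values was not tested. Of 11 stellate cell, 4 lymphocyte, 3 platelet, 3 neutrophil, 5 cholangiocyte and 6 hepatocyte markers, 0 passed in overexpressing and in control mice by limma or edgeR (2 and 4 at an unadjusted p under 0.05), and 1, the hepatocyte gene Ttr (-0.79 ± 0.21, adjusted p = 0.0196), passed in knockout mice. The summed level of the stellate cell markers was 312 to 577 CPM over the 18 libraries, that of lymphocytes 1.67 to 10.4 CPM, of platelets 1.03 to 19.2 CPM, of neutrophils 0.757 to 32.2 CPM and of cholangiocytes 16.5 to 114.9 CPM. The lymphocyte sum was 1.67 to 4.17 CPM in ethanol-fed and 4.70 to 8.34 CPM in pair-fed knockout mice. That of hepatocytes was 48636 to 53362 CPM in ethanol-fed and 61840 to 80867 CPM in pair-fed knockout mice, and the groups overlapped for both lists in overexpressing and control mice. Between genotypes on one diet, 0 genes of all the lists other than the members passed in any of the 4 comparisons by limma or edgeR. At an unadjusted limma p under 0.05 there were 2 to 14 (1.77% to 12.4% of those tested, against 3.13% to 8.84% of all genes).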

How the data were processed

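Total RNA of whole mouse liver was read with the Ion AmpliSeq mouse transcriptome panel, which counts 1 amplicon per gene. The deposited values are CPM per gene for 23930 genes in 18 libraries, made by the authors with ampliSeqRNA 5.10.1.2 per the file headers. The deposited log2 files of single samples equalled log2(CPM + 1) of that table within 2.0e-06. Neither an aligner nor a genome build is given in the sources used here. Groups came from the sample labels, 3 libraries each. In all libraries 100.0% of the CPM values were whole multiples of the worth of 1 read (tolerance 0.02), so reads could be recovered. The libraries held 4.68 to 5.81 M reads, and limits from 3 reads cover counting error only.

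The 11720 genes that reached 1 CPM in 3 or more libraries were fitted as log2(CPM + 1) with limma 3.58.1 in R 4.3.3 (trend, 6 group means over all libraries), with Benjamini-Hochberg adjustment and a threshold of 0.05. Fold changes on this scale understate those of low genes. On the recovered reads edgeR 4.0.16 (quasi-likelihood, TMM) called 284 genes for ethanol in controls, 1261 in knockout and 136 in overexpressing mice, against 316, 1160 and 135 with limma. Other alternatives were TMM scaling, pseudocounts of 0.1 and 10, no filter and a minimum of 10 CPM, the groups compared alone, the replicate number or the range of Ion barcodes as a block, the split by Xist as a covariate, and each library left out in turn. For Ehd3, Thbd, Nos3, Ednrb, Vegfa and the list counts, the overexpression values without pair-fed replicate 1, and for these genes with the Xist split, were added after seeing the data.

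The 10 members and the 14 other gene lists (endothelial, VEGF ligand, hyaluronan, deoxyribonuclease and cell type lists) were chosen with earlier results of these data known. Of 151 list entries, 5 (Ackr1, Ly6c1, Ccl21a, Trex1 and Cd79a) were not matched to a panel symbol. Named genes are all members, up to 3 genes of each other list and comparison with the smallest adjusted p under 0.05, and the 5 genes most correlated with Lyve1, Dnase1l3 and Stab2. Wnt2, Tmem2, Cdh5, Tie1, C1qa and lymphatic genes other than Pdpn lie beyond this rule and were named after their values were seen. Promoter windows and their coordinates are from RefSeq, GRCm38.p6.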

Additional observations from a re-analysis of the deposited data

How the results depend on the processing

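With the split by Xist as a covariate, the number of members that passed for ethanol was 0 in knockout (1 otherwise) and 0 in control mice (3 otherwise). With the replicate number as a block it was 1 in knockout and 2 in control mice, and with the barcode range as a block 2 in control mice. The correlations of the deviations of same-numbered libraries ran between -0.27 and 0.28. With 3 libraries a group, this cannot decide whether replicate numbers pair the libraries. Leaving out 1 library at a time gave 0 to 1 in knockout and 0 to 3 in control mice. The count was 0 in controls without pair-fed replicate 2 and without ethanol-fed replicate 2, and 0 in knockout mice without pair-fed replicate 3 and without ethanol-fed replicate 1; the cause was not tested. In the other 7 comparisons it was 0 under every alternative run (16 each, and 22 for each interaction). No member value that passed changed sign, and 82 of 1551 member values under alternatives did, in 35 of 90 combinations of member and comparison, the largest of them 0.95 (log2) in size. TMM scaling moved the median of all genes by at most 0.09. At this depth Fcgr2b rested on 0 to 20 reads a library, so its differences are limited by counting error.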
